A study of Mus musculus with 10 samples.

Results

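The MYC and MAX genes are 4 mouse genes, Myc, Mycn, Mycl and Max, and the data are TET2 ChIP-seq peaks around them in embryonic stem (ES) cells. A peak belonged to a gene if it overlapped the gene's mm10 span, or lay within 50 kb of it with no protein-coding gene nearer. Overlapping peaks of the 8 lists were joined, and 40 of the 79350 joined regions fell to these 4 of 21887 protein-coding genes. Myc and Mycn held 14 regions each, Mycl 7 and Max 5. The genes were chosen by peak positions, folds and presence in these same lists, so the values are a description and carry no test.

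TET2, an enzyme that oxidises methylated cytosine, was captured with a rabbit antibody against its N-terminal part or, where it carried the tag, with FLAG M2 affinity gel. The antibody was used on wild-type cells of genotype Tet2fl/fl and on Tet2-/- knockout cells. The FLAG gel was used on Tet2fl/fl cells with a 2x-Flag tag on the endogenous TET2, called FLAG-TET2, and on their parental Tet2fl/fl cells with no tag. All groups grew in serum with LIF, 3 μM of the GSK-3 inhibitor CHIR99021 and 1 μM of the MEK1 inhibitor PD0325901, and each had 2 replicate lists. The labels do not say whether replicates were separate cultures, whether a line was 1 clone, or which part of Tet2 was deleted. Wild-type and FLAG-TET2 lists are called target lists, and knockout and parental lists, where the epitope is missing, control lists. The cell type rests on the labels, since peak lists measure no RNA.

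MYC, MYCN and MYCL are transcription factors of the basic helix-loop-helix leucine zipper class, which bind DNA as dimers with MAX, best at the E-box sequence CACGTG. MAX also pairs with MXD proteins, MNT and MGA, which oppose MYC at the same sites. Myc and Mycn are known to sustain the growth of mouse ES cells, and MAX with MGA is known to silence germ cell genes in them.

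The lists differed in length. The target lists held 18826 to 63612 peaks and the control lists 2261 to 36549. FLAG-TET2 replicate 1 was the longest, knockout replicate 1 the shortest, and parental replicate 1 nearly as long as wild-type replicate 1. The read depth behind each list is unknown. Absence from a short list therefore says less than absence from a long one.

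Sequences of the start sites are shown first, because peaks of target and of control lists met there. RefSeq promoter windows of build GRCm38.p6, which mm10 represents, were matched for 3 of the 4 genes (Max, Mycl and Mycn). Each runs from 250 bases before the start site to 50 after it, 5′ to 3′ along the gene, so that the start site is base 251. The gene spans begin upstream of these start sites for Mycl (122995588 against 122995931) and Max (76962323 against 76962248). Summit distances below hold for these start sites only. Capitals mark the E-box CACGTG in Max and its relative CACGCG in Mycl. Max lies on the minus strand at chr12:76962199-76962498, Mycl on the plus strand at chr4:122995681-122995980, and Mycn on the minus strand at chr12:12941787-12942086.
Max: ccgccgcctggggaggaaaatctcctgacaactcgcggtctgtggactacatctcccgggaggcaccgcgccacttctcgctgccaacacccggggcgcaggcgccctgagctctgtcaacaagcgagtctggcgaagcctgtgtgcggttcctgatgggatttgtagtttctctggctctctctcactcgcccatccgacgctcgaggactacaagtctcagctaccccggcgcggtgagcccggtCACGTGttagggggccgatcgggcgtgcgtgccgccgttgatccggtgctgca
Mycl: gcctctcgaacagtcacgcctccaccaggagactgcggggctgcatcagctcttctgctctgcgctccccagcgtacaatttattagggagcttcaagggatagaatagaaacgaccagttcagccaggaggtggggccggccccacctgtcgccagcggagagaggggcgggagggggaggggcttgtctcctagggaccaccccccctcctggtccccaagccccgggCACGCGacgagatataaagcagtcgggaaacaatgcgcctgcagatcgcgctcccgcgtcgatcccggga
Mycn: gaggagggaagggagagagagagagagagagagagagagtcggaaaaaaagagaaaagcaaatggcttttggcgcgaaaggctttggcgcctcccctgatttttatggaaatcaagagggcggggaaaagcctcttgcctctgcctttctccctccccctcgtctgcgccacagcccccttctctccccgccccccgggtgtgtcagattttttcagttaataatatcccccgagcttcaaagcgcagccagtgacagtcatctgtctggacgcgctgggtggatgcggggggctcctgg

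The E-box of Max begins at base 248, 3 bases before the start site, and so lies across it. CACGTG, which reads the same on both strands, was found in 7.15% of the 32851 promoter windows. The Mycl motif begins at base 231, and CACGCG stood on either strand in 9.27% of the windows. Neither was found in the Mycn window. The windows of Max, Mycl and Mycn held 30, 22 and 14 CpG dinucleotides, against a median of 7 over all windows, and 88.3%, 76.9% and 63.7% of windows held fewer. A match is a description of the letters and was not tested as a binding site.

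With all 8 lists, each of the 4 genes had exactly 1 common TET2 region, that is, a region seen in both wild-type and both FLAG-TET2 lists but in no knockout or parental list. Such regions made up 5.70% of all joined regions, and 13.6% of protein-coding genes had at least 1 (17.3% of those with any region). Max and Mycn had the regions of highest enrichment, Myc an intermediate one and Mycl a weak one. The genes had been proposed with these calls known, so the 4 of 4 is no evidence about MYC genes as a class. The count of 4 was 7 without knockout replicate 2, whose peaks lay in Myc and Mycn regions that all 4 target lists also held. Without parental replicate 1 or FLAG-TET2 replicate 2 it was 6. Max and Mycl kept a count of 1 whichever list was left out, where the looser rule makes a rise likelier than a fall. Myc had 3 common regions without FLAG-TET2 replicate 2, and 2 without knockout replicate 2 or parental replicate 1. Mycn had 3 without knockout replicate 2, and 2 without wild-type replicate 2 or parental replicate 1.

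The Max region (chromosome 12, 76965067 to 76965469, mm10) was centred 3.02 kb upstream of the start site, outside the gene. MAX is the shared partner of all MYC proteins. The authors' fold enrichment at its summit, a ratio over their control track, was 29.8 in wild-type replicate 1 and 19.8 in replicate 2, and 35.4 in FLAG-TET2 replicate 1 and 24.7 in replicate 2. By −log10 q it ranked 89 and 70 in the wild-type lists and 1195 and 1018 in the FLAG-TET2 lists, and it ranked 3 among the 4521 common regions by mean percentile. The summits of the 4 lists lay within 21 bp of each other, against a median spread of 53.0 bp over all common regions. It stayed a common region under each of the 19 settings tried. Most of these could hardly have removed it, since leaving out lists loosens the rule and the distance to a gene does not enter it. Given the values of this region, neither could the stricter threshold, the summit windows, the other joining rule or the shortened lists. Its lowest −log10 q was 49.7 against a threshold of 5, and its ranks all lay within the 2259 peaks kept. Its summits lay within 21 bp for windows of 200 bp, and its peaks, 303 to 387 bp wide, shared a region of 403 bp. That it stayed a common region is therefore no check.

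The Mycn region (chromosome 12, 12943102 to 12944035) was centred 1.73 kb upstream of the start site. MYCN is the family member named for its amplification in neuroblastoma. The folds were 17.7 and 10.8 in the wild-type and 26.2 and 14.5 in the FLAG-TET2 lists, and 3 of the 4 values lay above those of at least 90% of common regions (92.1%, 89.8%, 98.0% and 96.7% in the same order). The summits agreed within 38 bp in a region 934 bp wide, and its rank among common regions was 271.

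The Myc region (chromosome 15, 61978931 to 61979334) lay 6.01 kb below the lower-coordinate end of the gene span. Its folds were 11.6 and 5.11 in the wild-type lists and 21.3 and 9.45 in the FLAG-TET2 lists. Wild-type replicate 2 stood apart, with the peak at percentile 20.3 of its list, while the percentiles in the other target lists were 84.3, 94.9 and 78.3. The region ranked 2381 among common regions.

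The Mycl region (chromosome 4, 123000938 to 123001453) was the only common region inside one of the 4 gene spans, 5.26 kb downstream of the start site. MYCL is a family member first found amplified in lung cancer. Its folds were 6.31 and 3.98 in the wild-type lists and 11.3 and 4.74 in the FLAG-TET2 lists, and its rank was 4118 of 4521. In wild-type replicate 2 the −log10 q was 3.30, at percentile 4.78 of the list, and with a threshold of 5 on −log10 q Mycl had no common region, whereas Mycn then had 2.

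In all 4 common regions the fold was highest in FLAG-TET2 replicate 1, then wild-type replicate 1, FLAG-TET2 replicate 2 and wild-type replicate 2. That is also the order of the lists by number of peaks. Of all common regions, 32.0% showed the same order. The fold therefore cannot be read as more binding with one reagent, and a difference between tagged and untagged TET2 cannot be told apart from the reagent.

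**Figure D1:**
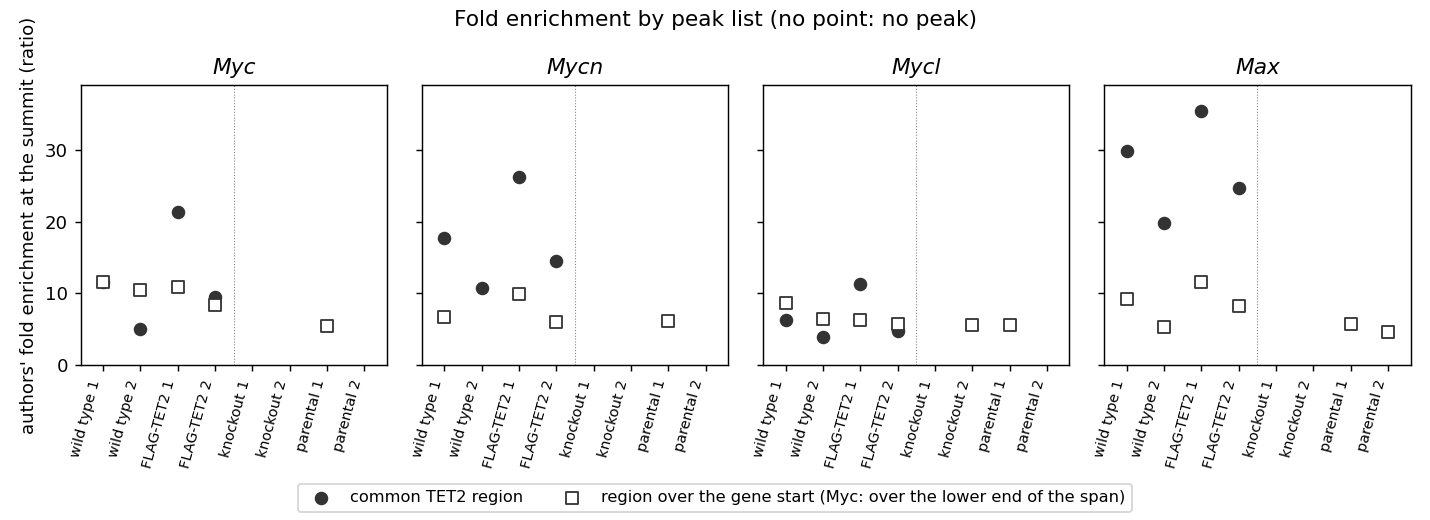
Authors' fold enrichment at the summit (y axis, ratio) in each of the 8 peak lists (x axis) for the common TET2 region (filled circles) and the region over the start of the gene (open squares, for Myc over the lower-coordinate end of the span). Where a list has no point it had no peak. At Max the circles lie between 19.8 and 35.4 and the squares at or under 11.6, and in the Myc panel both symbols of wild-type replicate 1 coincide at 11.6.

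At the start sites themselves the target lists had peaks as well, but so did at least 1 control list in each case. The windows of Max and Mycl were among the 4281 promoter windows that the 4 target lists all overlapped. Of those windows, 85.0% were also overlapped in a control list. The region over the Max start site (chromosome 12, 76961496 to 76962919) gave wild-type folds of 9.22 and 5.39 and FLAG-TET2 folds of 11.6 and 8.22, against parental folds of 5.80 and 4.58 and no knockout peak. The summits of wild-type replicate 1, FLAG-TET2 replicate 1 and FLAG-TET2 replicate 2 fell 21 bp upstream, 2 bp upstream and 6 bp downstream of the start site, close to or within the E-box printed above. That of wild-type replicate 2 fell 189 bp upstream. FLAG-TET2 replicate 2 had another, lower peak there, with a fold of 3.38 and its summit 249 bp upstream. Parental summits fell 402 bp upstream and 371 bp downstream in replicate 1 and 442 bp downstream in replicate 2. These summits stood farther from the start site than those of the target lists. The peaks themselves overlapped, for parental replicate 1 with all target lists. The peak of parental replicate 2 lay within peaks of wild-type replicate 1 and both FLAG-TET2 replicates.

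The region over the Mycl start site (chromosome 4, 122995406 to 122996510) gave wild-type folds of 8.73 and 6.47 and FLAG-TET2 folds of 6.37 and 5.75, against 5.67 in knockout replicate 2 and 5.62 in parental replicate 1. The wild-type summits were 6 and 30 bp downstream of the start and that of knockout replicate 2 was 8 bp upstream, so that peak lay at the position of the wild-type peaks. FLAG-TET2 replicate 1 had summits 20 and 570 bp downstream, and replicate 2 had summits 228 bp upstream and 141 bp downstream. The summits of parental replicate 1 stood 430 bp upstream and 330 bp downstream. They lay farther out than those of FLAG-TET2 replicate 2, but nearer than the outer summit of FLAG-TET2 replicate 1. At the Mycn start site (chromosome 12, 12941025 to 12942051) wild-type replicate 2 had no peak. The folds were 6.78 in wild-type replicate 1 and 9.88 and 6.06 in the FLAG-TET2 lists, with summits 128 bp upstream and 148 and 34 bp downstream. Parental replicate 1 had 3 peaks in the region. The one with the highest fold, 6.19, had its summit 740 bp downstream, outside the promoter window. The one over the window had a fold of 5.04 and its summit 68 bp downstream, nearer the start site than that of wild-type replicate 1. The region across the lower-coordinate end of Myc (chromosome 15, 61984709 to 61985953) gave wild-type folds of 11.6 and 10.5 and FLAG-TET2 folds of 10.9 and 8.46, against 5.54 in parental replicate 1 alone. It had the highest mean percentile of any Myc region, 82.1, above the 69.5 of the common one.

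**Figure D2:**
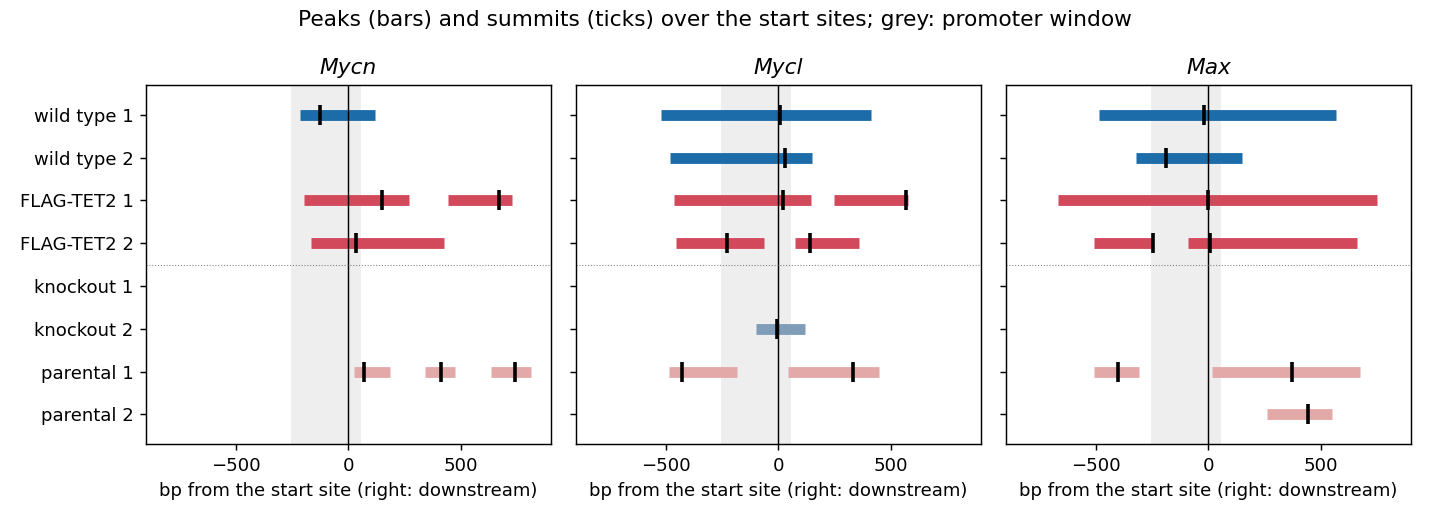
Peaks (bars) and their summits (ticks) in each list (rows, target lists above the dotted line) by distance in bp from the start site of Mycn, Mycl and Max (x axis, downstream to the right), with the printed promoter window in grey. The target summits of Max lie between 249 bp upstream and 6 bp downstream and the parental ones at 402 bp upstream and 371 and 442 bp downstream, while knockout replicate 2 shares the Mycl start with the wild-type lists.

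Further regions were held by all 4 target lists and missed the common class for a control peak. In all, 12 of the 40 regions had a peak in the 4 target lists (30.0% of the members' regions, against 15.0% of all joined regions), and 8 of these also had a control peak. Every target fold exceeded every control fold in 5 of the 8, beside 24.9% of all such regions. The other 3 were the Max start site and a region each of Myc and Mycn. This count sets folds of unlike lists and reagents side by side, so it is a description only. The Mycl start site was among the 5 by a narrow margin (5.75 against 5.67). At the Max start site only wild-type replicate 2 (5.39) fell below a control fold, the 5.80 of parental replicate 1, which came from the other reagent. Inside Mycn (chromosome 12, 12938358 to 12939278) the wild-type folds were 14.8 and 7.63 and the FLAG-TET2 folds 23.4 and 12.2, against 4.95 in parental replicate 1. Another Mycn region, 8.34 kb past the far end of the gene (12927157 to 12927752), had wild-type folds of 11.1 and 9.62 and FLAG-TET2 folds of 18.9 and 8.88, against 6.16 in knockout replicate 2. A region 21.9 kb above Myc (chromosome 15, 62012296 to 62013113) had wild-type folds of 10.3 and 7.60 and FLAG-TET2 folds of 14.8 and 10.6, against 5.35 in knockout replicate 2 and 5.42 in parental replicate 1. These 3 were among the 5. A Myc region 20.2 kb above the gene (62010568 to 62011234) had wild-type folds of 9.36 and 7.53, against 6.16 in knockout replicate 2, and FLAG-TET2 folds of 4.36 and 3.96 with no parental peak. With the TET2 antibody the wild-type folds were thus the higher ones, and the knockout fold exceeded those of FLAG-TET2. With the FLAG gel there was no control fold to compare. A Mycn region 45.6 kb away (12987452 to 12987871) had wild-type folds of 8.14 and 7.39, against 5.95 in knockout replicate 2, and no parental peak. There FLAG-TET2 replicate 1 had a higher fold than either wild-type list, while replicate 2, at 5.20, lay below the knockout fold.

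Other regions had control peaks at folds like those in the target lists. The region at the upper end of Myc (chromosome 15, 61989450 to 61989731) had folds of 11.8 and 6.21 in FLAG-TET2 lists, against 11.1 and 7.33 in parental lists, and no peak with the TET2 antibody. At 27.8 kb below Myc (61957328 to 61957524) the fold was 8.74 in FLAG-TET2 replicate 1, against 14.3 in parental replicate 1. The only peak of knockout replicate 1 near any of the 4 genes lay 23.8 kb from Mycn (chromosome 12, 12911975 to 12912280), over the ribosomal protein pseudogene Rpl36-ps3 within the non-coding gene Gm40271. Its folds were 7.36 in wild-type replicate 1, against 5.23 and 8.61 in the knockout lists. Overall 23 regions had a peak with both reagents (57.5%, against 36.9% of all joined regions), 15 with the FLAG gel alone (37.5% against 50.7%) and 2 with the TET2 antibody alone (5.00% against 12.4%). FLAG-TET2 replicate 1 alone accounted for 7 regions and parental replicate 1 alone for 4. These were the longest target list and the longest control list. The matching shares over all joined regions were not computed, so the counts are not read as particular to these genes.

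**Figure D3:**
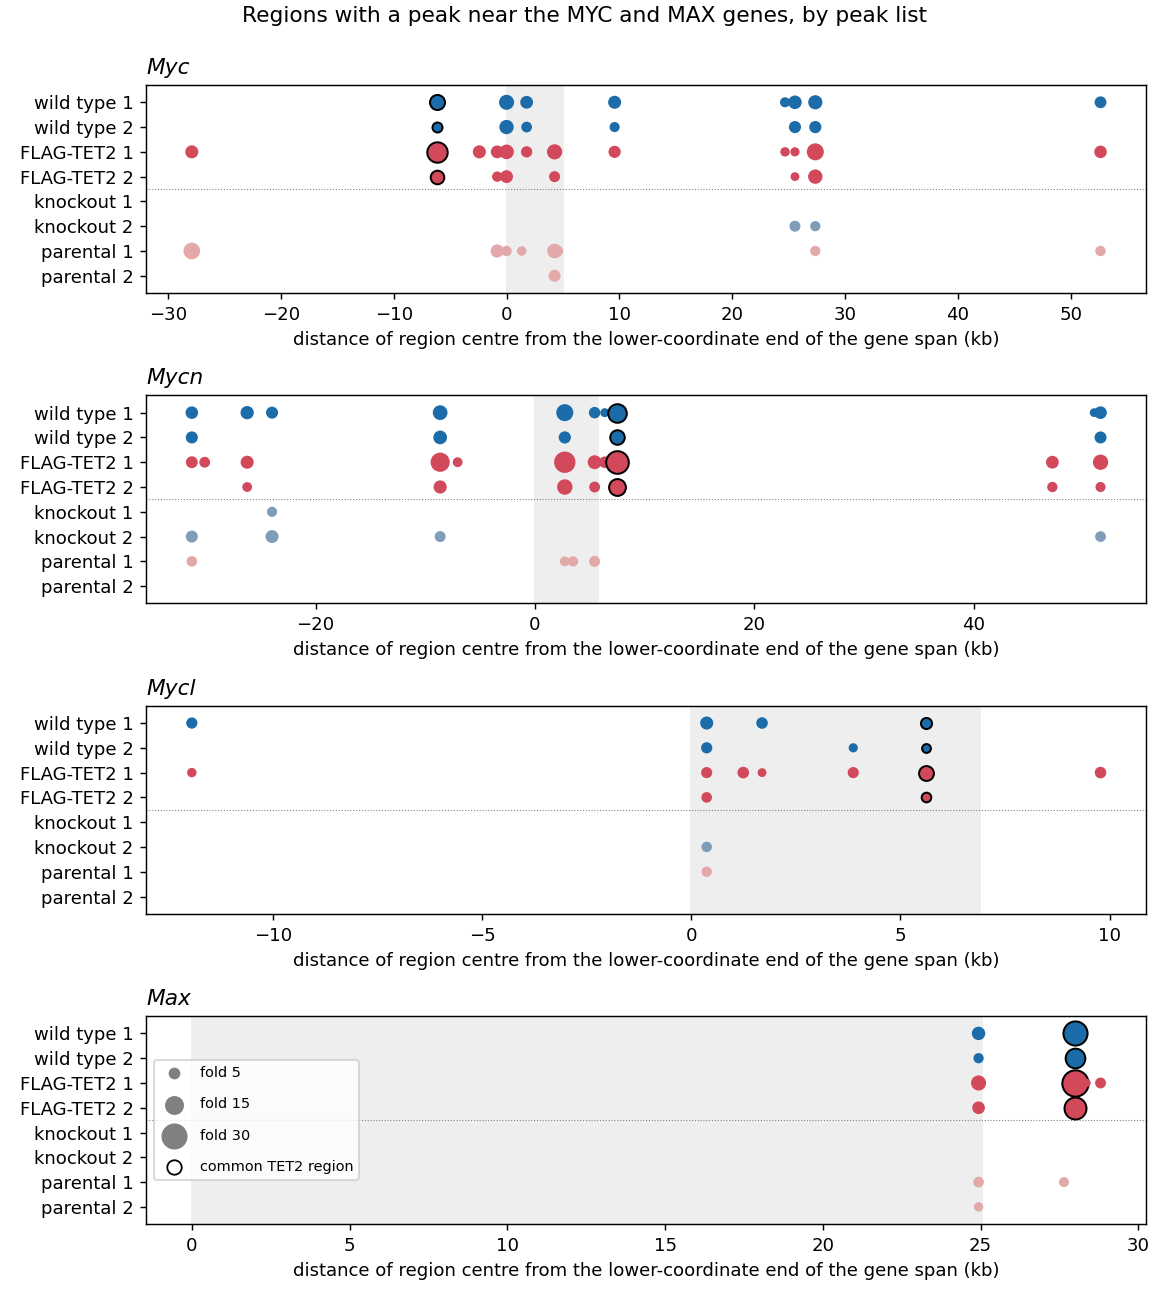
Position of each of the 40 regions (x axis, kb from the lower-coordinate end of the gene span, which is shaded) in the 8 lists (rows, target lists above the dotted line), with dot area proportional to the authors' fold and a black outline for common TET2 regions. Each gene has 1 outlined column, beside the gene for Myc, Mycn and Max and inside it for Mycl, and the knockout rows hold 1 dot (replicate 1) and 7 dots (replicate 2) over all panels.

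Counted per list, peaks near the 4 genes were more numerous in target than in control lists, except in parental replicate 1. The numbers for Myc were 8 and 6 in the wild-type lists and 12 and 7 in the FLAG-TET2 lists, against 0 and 2 in knockout and 10 and 1 in parental lists. Parental replicate 1 thus exceeded 3 of the 4 target lists at Myc. For Mycn they were 10 and 5 in the wild-type lists and 13 and 8 in the FLAG-TET2 lists, against 1 and 4 in knockout and 6 and 0 in parental lists. Mycl had 4 and 3 in the wild-type lists and 8 and 3 in the FLAG-TET2 lists, against 0 and 1 in knockout and 2 and 0 in parental lists, with no overlap between target and control lists, as for 4.73% of all genes. Max had 2 and 2 in the wild-type lists and 4 and 3 in the FLAG-TET2 lists, against none in knockout and 3 and 1 in parental lists. Parental replicate 1 also exceeded wild-type replicate 2 at Mycn and both wild-type lists at Max. Over all 4 genes the target lists averaged 24.5 peaks and the control lists 7.75, a difference of 16.8 with a pooled SD between lists of 9.09 (n = 4 lists each). The lists of each side mix both reagents and unlike lengths, so that SD is not a spread between replicates. With each list left out in turn, the target minus control difference ran from 12.6 without FLAG-TET2 replicate 1 to 21.2 without parental replicate 1.

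These numbers have to be read against the length of the lists. At least 1 peak was nearest to 66.2% and 48.3% of all genes in the wild-type lists and to 73.2% and 54.5% in the FLAG-TET2 lists, against 9.02% and 34.7% in the knockout and 63.4% and 30.9% in the parental lists. All 4 genes had a peak in each target list and in parental replicate 1. Of the 40 regions, 60.0% and 40.0% had a peak in the wild-type and 85.0% and 42.5% in the FLAG-TET2 lists, against 2.50% and 17.5% in the knockout and 37.5% and 5.00% in the parental lists. Over all joined regions the shares were 45.5% and 22.0% in the wild-type and 77.3% and 31.5% in the FLAG-TET2 lists, against 2.74% and 14.1% in the knockout and 41.7% and 11.6% in the parental lists. A control peak was present in 19 of the 40 regions, 47.5% beside 50.7% of all regions. Myc carried 9 of these 19, Mycn 7, Max 2 and Mycl 1.

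**Figure D4:**
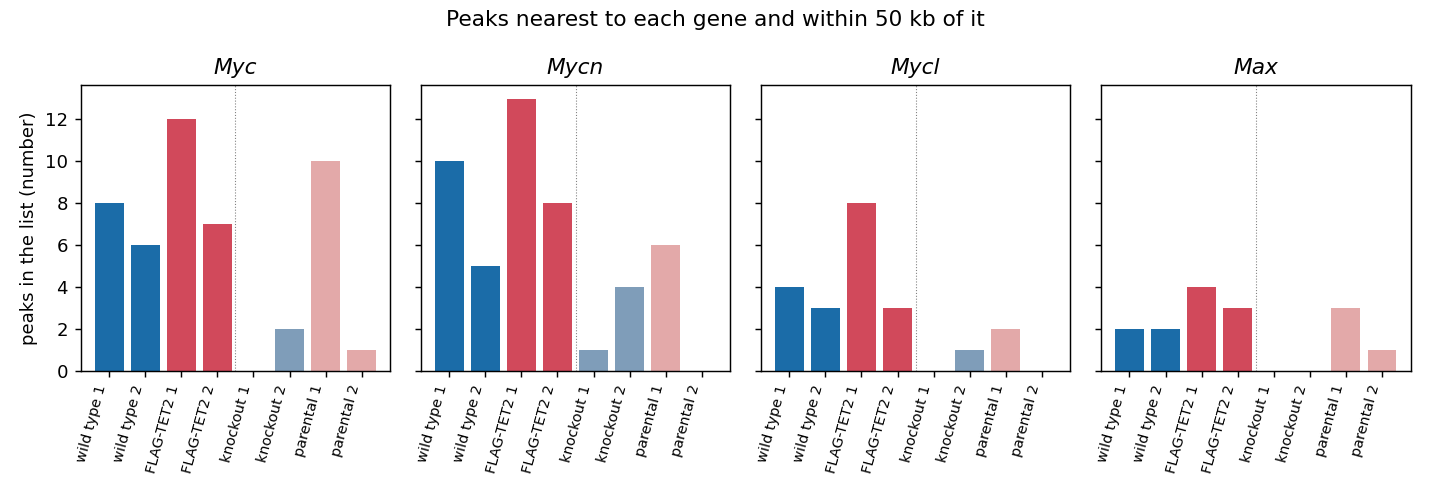
Number of peaks (y axis) nearest to each gene and within 50 kb of it in each list (x axis, target lists left of the dotted line). Myc and Mycn have the most, up to 12 and 13 in FLAG-TET2 replicate 1, and parental replicate 1 has 10 at Myc.

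Myc and Mycn have no other protein-coding gene within the window, and 97.4% of genes had fewer regions than either. Mycl lies between Mfsd2a and Trit1, and Max beside Fntb, which encodes a subunit of farnesyltransferase. Within 50 kb of Mycl 6 more regions were nearer to another gene, and 8 more within 50 kb of Max. Each set held 1 common region. The one 10.1 kb from Mycl and 3.65 kb from Trit1 had wild-type folds of 9.02 and 7.68 and FLAG-TET2 folds of 15.2 and 8.60, above those of Mycl's own common region. The one 26.6 kb from Max, inside Fntb, had wild-type folds of 19.9 and 11.3 and FLAG-TET2 folds of 19.4 and 10.6. The farthest regions given to Myc and Mycn lay 47.4 and 45.6 kb away, and the nearest ones left out lay at 57.3 and 86.3 kb. The region at 47.4 kb overlapped Pvt1, a non-coding neighbour of Myc.

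Among the regions within the gene spans or 1 kb of them, 10 of 16 had a control peak and 1 was common. Over all regions at such places 52.4% had a control peak and 5.31% were common. Farther out, 9 of 24 had a control peak and 3 were common, beside 42.3% and 7.38% of all regions 1 to 50 kb from a gene. Control peaks were thus less frequent farther out over all genes as well. The 3 common regions outside a gene span were thus at 1.27 kb (Mycn), 2.74 kb (Max) and 6.01 kb (Myc) from it.

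By number of peaks over the 8 lists, the genes with the pattern most like that of Max were Zfp740, Usf1 and Erbb3. The measure was the Euclidean distance of log2(number + 1) over the 8 lists among the 2976 other genes with a common region, and it was 0.32, 0.42 and 0.49. Fgf18, Mgat4f, Nphs1 and Nup188 also rounded to 0.49, so the third place is shared in effect.

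Genes that work with MYC and MAX had common regions in a share near the background with all 8 lists. Of 37 listed genes, 7 had one (18.9%, beside the 17.3% of genes with any region). All 37 had some region, as did 17169 of the 21887 protein-coding genes. A region with a control peak was found for 36. The share of all genes with such a region was not computed, so this count is not read as a trait of the listed genes. Their median number of regions was 5.00, against 2.00 over all genes. Without wild-type replicate 2 the count was 14 (37.8%), beside 25.4% of genes with any region. Without parental replicate 1 it was 8 (21.6%), below the 26.4% of genes with any region, so the share lay on either side of the background.

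In the network of MAX and MLX partners 1 of 9 genes had a common region. This was Mga, the large MAX-binding repressor, with a region 14.8 kb away (chromosome 2, 119857246 to 119857741) and wild-type folds of 19.3 and 12.3 and FLAG-TET2 folds of 18.5 and 11.5. Mga carried 5, 6, 5 and 8 peaks in the wild-type and FLAG-TET2 lists, against 3, 3, 5 and 1 in the knockout and parental lists. The others without one were Mxd1, Mxi1, Mxd3, Mxd4, Mnt, Mlx, Mlxip and Mlxipl.

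Of 10 cofactor genes 2 had a common region. Ruvbl1, an ATPase of chromatin remodelling complexes, had one inside the gene (chromosome 6, 88482935 to 88483438) with wild-type folds of 15.7 and 11.8 and FLAG-TET2 folds of 28.1 and 18.2. Bptf, a subunit of the NURF remodeller, had 2, the leading one with wild-type folds of 10.6 and 7.38 and FLAG-TET2 folds of 16.2 and 9.49.

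Of 8 genes that regulate the stability or transcription of MYC 3 had a common region. Tcf7l1, a repressor of WNT target genes, had 5 of them among 29 regions, the leading one with wild-type folds of 20.1 and 9.51 and FLAG-TET2 folds of 19.7 and 15.2. Its peaks numbered 17, 8, 28 and 16 in the wild-type and FLAG-TET2 lists, against 0, 0, 7 and 2 in the knockout and parental lists. Usp28, a deubiquitinase that protects MYC from degradation, had 2 common regions, and Gsk3b, a kinase that marks MYC for degradation and whose activity the culture medium inhibits, had 1. Fbxw7, the ubiquitin ligase subunit that recognises MYC, had none.

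Of 10 classical MYC target genes 1, the cyclin gene Ccnd2, had a common region, with wild-type folds of 6.14 and 6.47 and FLAG-TET2 folds of 12.9 and 9.32. Odc1, Cad, Ncl, Npm1, Ldha, Tert, Cdk4, Nop56 and Eif4e had none.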

How the data were processed

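Per the submitters' processing notes, the tools named were MACS2, Bowtie2, Trimmomatic, DESeq2 and DiffBind and the build was mm10. Their versions and roles are not given in the sources used here. Each deposited list holds the peaks of 1 library. The deposited score follows the −log10 q value as a scaled whole number and was not used. The fold (a ratio at the summit) and the −log10 p and q values in the deposited lists are the authors' own. They describe peaks, and ranks were taken within a list only. Folds of different lists set side by side are a description.

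Of 10 samples, 8 had a list. The input and IgG samples were not analysed here. Peaks on 21 chromosomes were kept and joined where they shared at least 1 bp (Python 3.11.15, pandas 2.3.3), and each region was given to its nearest protein-coding gene of GRCm38.p6 within 50 kb. In a list with several peaks in a region, the one with the highest −log10 q is given. The method was tested on simulated peaks. Region sequences were not used here.

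The members and the gene lists were chosen with earlier results of these data known. The genes and regions named are the members' common regions, the regions of highest percentile and of most control lists, and up to 4 listed genes a group. The other member regions, the genes beside Mycl and Max, and list members without a common region were named after their values were seen. Alternatives were a stricter threshold, summit windows, another joining rule, shortened lists, other distances, other control sets and lists left out. No test was run, since the rule used these values. Read depth is unknown, so counts have no interval.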

Additional observations from a re-analysis of the deposited data

How the results depend on the processing

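Each member had at least 1 common region in 17 of the 19 settings. The settings that left out lists loosened the rule and so could hardly lower this. With each list shortened to its 2259 leading peaks, 6 regions and 1 common region (at Max) were left, the difference in peak number was 2.00, the mean percentile of the Max region was 73.7 in place of 98.5, and 1 of the 37 listed genes had a common region in place of 7. With a −log10 q of at least 5, Mycl had no common region. Leaving out each list in turn gave 4 to 7 common regions near the members (7 without knockout replicate 2) and 7 to 14 listed genes with one (14 without wild-type replicate 2), and 34 to 41 regions. As a replicate block, lists of replicate number 1 alone gave 14 common regions and 21 listed genes (56.8%, beside 46.3% of genes with any region). Lists of number 2 alone gave 24 regions in place of 40 and 6 common ones. There 10 listed genes had a common region, 28.6% of those with any region, beside 32.3% of all genes with any region. The numbers share no label of a culture or day, so pairing was not assumed. With controls of the same reagent only, the TET2 antibody arm had 25 regions with 9 common ones, and the FLAG arm 9 common ones. Fewer conditions or shorter lists make these shifts by construction. No target minus control difference became negative, but with the shortened lists it was 0 at Mycl and 0.250 at Myc. The genes were chosen with these values known, so the kept direction is no check. Unknown read depth limits every absence.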
